A study of Mus musculus with 4 samples.

Results

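The interleukin-1 (IL-1) system was followed through 10 genes of mouse bone marrow-derived dendritic cells: the cytokines Il1a, Il1b and Il18, the soluble inhibitors Il1rn and Il18bp, the receptors Il1r2 and Il1rap, and the inflammasome genes Nlrp3, Casp1 and Casp4. They were chosen by gene symbol, with no measured value in the rule, but with earlier results of these data known. Counts of members beside the share of all genes are therefore a description only. All 10 of 10 were listed in each of the 3 deposited tables, which together list 13685 genes. Bone marrow of 4-week-old C57BL/6 mice was the source, and GM-CSF and IL-4, at 10 ng/ml each, were present during 7 days of culture in all groups. Cells were then given Wnt2 (a secreted Wnt ligand), given CAF.CM after its incubation with an antibody to Wnt2 (CAF.CM+Wnt2 Ab), given CAF.CM alone, or kept in control medium. CAF.CM is culture medium of CAFs, the usual abbreviation of cancer-associated fibroblasts. The sources used here do not give doses, treatment times or the origin of the CAFs. The 4 groups have 1 column of values each, called a library below, although the series text speaks of triplicates. No difference therefore has a replicate check, and the intervals given are 95% intervals for counting error only.

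IL-1 alpha and IL-1 beta signal through the same receptor, which needs the accessory protein encoded by Il1rap, while IL-18 has a receptor of its own. The pathway is held in check outside the cell by the receptor antagonist (Il1rn), by the decoy receptor (Il1r2), which binds IL-1 without signalling, and by the IL-18 binding protein (Il18bp). IL-1 beta and IL-18 are made as inactive precursors, which caspase-1 cuts once an inflammasome such as that of NLRP3 has formed. Transcript levels, which are what was measured here, do not show that processing step. Dendritic cells are a known source of these cytokines.

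The libraries held 154399767 reads in listed genes with Wnt2, 22791494 with CAF.CM+Wnt2 Ab, 25225220 with CAF.CM and 143071376 in control medium, so precision was lower in both CAF.CM libraries. Depth thus differed along with CAF.CM. Its part in the ratios of these libraries to Wnt2 and control medium was not tested. Values are CPM (read counts scaled to a common library size) as deposited by the authors, and ratios between libraries are log2 ratios. Higher and lower are used of ratios that reached 2-fold, unless values are given. The dendritic cell label was checked against 16 markers, of which 15 were listed in at least 1 table. Their summed level was 857 CPM with Wnt2, 1924 with CAF.CM+Wnt2 Ab, 2007 with CAF.CM and 3721 in control medium. With Wnt2 against control medium 0 of 15 were higher and 6 lower, where 2.87% and 2.93% of all genes were. Among the lower ones were the antigen presentation genes Cd74, H2-Aa and H2-Eb1. With CAF.CM 0 of 13 were higher and 3 lower (Itgax, Cd74 and Dpp4), where 6.68% and 8.69% of all genes were. Single markers ordered the libraries differently. Itgax, which encodes CD11c, stood at 223 CPM with Wnt2, 30.3 with CAF.CM+Wnt2 Ab, 47.7 with CAF.CM and 888 in control medium. Zbtb46, a transcription factor gene of classical dendritic cells, stood at 10.3 CPM with Wnt2, 21.2 with CAF.CM+Wnt2 Ab, 17.1 with CAF.CM and 15.7 in control medium. Flt3 was listed only in the Wnt2 table, at 1.17 CPM with Wnt2 and 0.699 in control medium. Macrophage and monocyte markers summed to 21111 CPM with Wnt2, 6684 with CAF.CM+Wnt2 Ab, 9618 with CAF.CM and 29476 in control medium. Most of this was Lyz2, the lysozyme gene, with 18050 CPM with Wnt2, 4425 with CAF.CM+Wnt2 Ab, 6907 with CAF.CM and 25764 in control medium. Of the 14 markers, 1 was higher and 6 lower with Wnt2 than in control medium, where 2.87% and 2.93% of all genes were. With CAF.CM 2 were higher (Cd14 and Ly6c2) and 8 lower, where 6.68% and 8.69% of all genes were. In such bulk samples fewer cells of a type and less RNA per cell cannot be told apart.

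Il1b was the member with the greatest rise over control medium in both single treatments. It stood at 35.3 CPM with Wnt2, 66.8 with CAF.CM+Wnt2 Ab, 62.7 with CAF.CM and 7.18 in control medium. Control medium thus gave the lowest level, and the counting intervals of both CAF.CM libraries overlapped. Il1b was 4.91-fold higher with Wnt2 than in control medium (log2 ratio 2.30, interval 2.20 to 2.4) and 8.70-fold higher with CAF.CM (3.12, interval 3.01 to 3.24). Among all listed genes 99.6% had a lower ratio than Il1b with Wnt2, and 99.2% with CAF.CM. The antibody left the level of Il1b close to that in CAF.CM alone, at a log2 ratio of 0.09 (interval -0.01 to 0.19).

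Il1a, the second agonist gene, is the neighbour of Il1b. Both lie on the minus strand of chromosome 2, Il1b at chr2:129364570-129371139 and Il1a at chr2:129299610-129309972 (GRCm38, GENCODE M21), 54598 bases apart with 0 protein-coding genes between them. Il1a stood at 37.3 CPM with Wnt2, 132 with CAF.CM+Wnt2 Ab, 90.0 with CAF.CM and 27.5 in control medium, with no overlap of counting intervals. It was 3.27-fold higher with CAF.CM than in control medium (log2 ratio 1.71, interval 1.64 to 1.79), but within 2-fold with Wnt2 (0.44, interval 0.38 to 0.50). The antibody library had more Il1a than CAF.CM alone, at a log2 ratio of 0.55 (interval 0.47 to 0.63), and 94.9% of listed genes had a lower ratio there. It was the member with the highest ratio in that comparison. An antisense transcript, Gm14023, shares 222 exon bases (11.2%) with Il1a, and it stood at 4.32 CPM with Wnt2, 8.36 with CAF.CM+Wnt2 Ab, 8.14 with CAF.CM and 2.43 in control medium. The sources used here do not say whether reads were counted by strand.

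The start regions of both genes are shown because these neighbouring genes had different ratios of Wnt2 to control medium. Each window runs from 250 bases before to 50 after the RefSeq transcription start (GRCm38.p6, minus strand), with matches to the searched motifs in capitals. Il1a is at chr2:129309923-129310222 and Il1b at chr2:129371090-129371389.
Il1a: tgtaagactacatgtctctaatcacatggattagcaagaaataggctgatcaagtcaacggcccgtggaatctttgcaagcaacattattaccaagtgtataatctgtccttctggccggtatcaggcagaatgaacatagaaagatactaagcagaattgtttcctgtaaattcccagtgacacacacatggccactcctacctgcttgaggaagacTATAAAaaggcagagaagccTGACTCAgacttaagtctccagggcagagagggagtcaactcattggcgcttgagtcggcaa
Il1b: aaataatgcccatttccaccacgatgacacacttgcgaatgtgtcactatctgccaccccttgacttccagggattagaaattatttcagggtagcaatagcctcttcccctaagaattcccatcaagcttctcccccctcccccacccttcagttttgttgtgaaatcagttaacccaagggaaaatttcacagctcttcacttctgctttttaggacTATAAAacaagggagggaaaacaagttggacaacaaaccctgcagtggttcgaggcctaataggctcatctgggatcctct
A TATA box (TATAAA) began 32 bases before the start of Il1a and 31 before that of Il1b, and 13.6% of all 32851 promoter windows hold these letters on either strand. An AP-1 motif (TGANTCA), which began 12 bases before the start of Il1a, is found in 7.81% of windows. Neither window held the letters searched for kappaB (GGGA, any 4 bases, CC, in 20.7% of windows), the interferon-stimulated response element (GAAA, any 2 bases, GAAA, 3.44%), the gamma-activated sequence (TTCNNNGAA, 8.3%) or TCF/LEF, the factors of canonical Wnt signalling (CTTTGA, 16%). These searches covered both strands, and a match describes letters and not a bound site. Whether the letters bear on the levels of Il1a and Il1b was not tested.

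**Figure D1:**
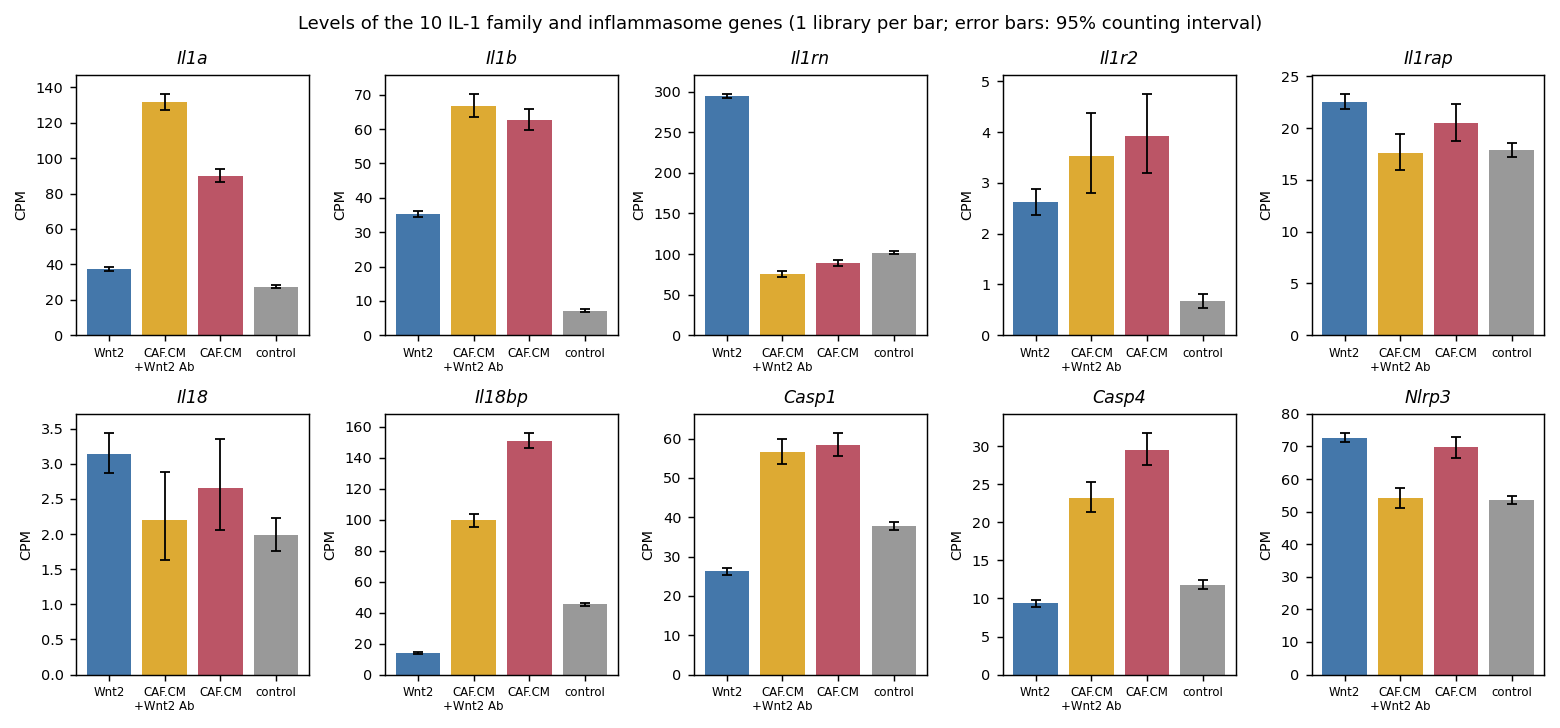
Level of each of the 10 genes in CPM (vertical axis, from 0, own scale per gene) in the Wnt2, CAF.CM+Wnt2 Ab, CAF.CM and control libraries, 1 library per bar, with 95% counting intervals as error bars. Il1b is lowest in control medium at 7.18 CPM, Il1rn highest with Wnt2 at 294 CPM, and Il18bp lowest with Wnt2 at 13.7 CPM.

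Among the inhibitors, Il1rn separated Wnt2 from the other libraries. The receptor antagonist gene stood at 294 CPM with Wnt2, 75.8 with CAF.CM+Wnt2 Ab, 88.5 with CAF.CM and 102 in control medium. Only the Wnt2 library lay above control medium. The difference was 2.89-fold with Wnt2 (log2 ratio 1.53, interval 1.51 to 1.56), while CAF.CM gave -0.20 (interval -0.27 to -0.14) and the antibody against CAF.CM gave -0.22 (interval -0.31 to -0.13). Set directly against Wnt2, CAF.CM had 3.33-fold less Il1rn (log2 ratio -1.73, interval -1.80 to -1.67).

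Il1r2, the decoy receptor gene, was the least abundant member per kilobase with Wnt2, with CAF.CM and in control medium, and rose in every treatment. It stood at 2.62 CPM with Wnt2 (402 reads), 3.53 with CAF.CM+Wnt2 Ab (82 reads), 3.92 with CAF.CM (102 reads) and 0.671 in control medium (95 reads). The control level lay below the listing floor of about 1 CPM. Il1r2 was thus listed against control medium only through the treated library. Both CAF.CM libraries overlapped in their counting intervals, as did the antibody library and Wnt2. Il1r2 was 3.84-fold higher with Wnt2 than in control medium (log2 ratio 1.94, interval 1.64 to 2.30) and 5.67-fold higher with CAF.CM (2.5, interval 2.13 to 2.96).

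Il18bp moved in opposite directions with Wnt2 and with CAF.CM. It stood at 13.7 CPM with Wnt2, 99.6 with CAF.CM+Wnt2 Ab, 151 with CAF.CM and 45.4 in control medium, with no overlapping counting intervals. It was 3.32-fold lower with Wnt2 than in control medium (log2 ratio -1.73, interval -1.81 to -1.66), and only 0.80% of listed genes had a lower ratio. CAF.CM gave 3.33-fold more than control medium (1.73, interval 1.68 to 1.79), and with the antibody the level was 1.52-fold below that in CAF.CM alone (-0.60, interval -0.68 to -0.53). CAF.CM against Wnt2 came to 11.1-fold (3.47, interval 3.39 to 3.55), the widest span between these libraries among the 10 genes. Il18bp (chr7:102014885-102018690, minus strand) shares 80 exon bases (2.64%) with Numa1 on the opposite strand. Numa1 stood at 205 CPM with Wnt2, 237 with CAF.CM+Wnt2 Ab, 254 with CAF.CM and 211 in control medium, the same order of libraries as Il18bp. The part of Numa1 reads in the Il18bp values was not tested.

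Il18 itself was scarce. It had 3.14 CPM with Wnt2 (483 reads), 2.20 with CAF.CM+Wnt2 Ab (51 reads), 2.65 with CAF.CM (69 reads) and 1.99 in control medium (281 reads). Neighbouring libraries in this order of level all overlapped in their counting intervals, and 0.66 was its log2 ratio with Wnt2 against control medium (interval 0.45 to 0.88). Il1rap, the shared receptor chain gene, ranged over 1.28-fold among the 4 libraries, with 22.6 CPM with Wnt2, 17.6 with CAF.CM+Wnt2 Ab, 20.5 with CAF.CM and 17.9 in control medium.

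Of the inflammasome genes, Casp4, which encodes mouse caspase-11, a sensor of cytosolic lipopolysaccharide, differed most. It stood at 9.36 CPM with Wnt2, 23.3 with CAF.CM+Wnt2 Ab, 29.6 with CAF.CM and 11.8 in control medium. CAF.CM thus gave the highest level and Wnt2 the lowest. The log2 ratio of CAF.CM against control medium was 1.32 (2.5-fold, interval 1.2 to 1.45), and Wnt2 gave -0.33 (interval -0.44 to -0.23). Casp1 stood at 26.2 CPM with Wnt2, 56.7 with CAF.CM+Wnt2 Ab, 58.4 with CAF.CM and 37.8 in control medium, the same order of libraries, but stayed within 2-fold of control medium, at 0.62 (interval 0.54 to 0.71) with CAF.CM and -0.53 (interval -0.59 to -0.47) with Wnt2. Set against Wnt2, CAF.CM had 2.22-fold more Casp1 and 3.15-fold more Casp4. These genes are neighbours on the plus strand of chromosome 9, Casp1 at chr9:5298517-5307265 and Casp4 at chr9:5308828-5336783, with 1563 bases between them, and 0% of the 31-base words of either transcript were found in another gene. Nlrp3 varied less, at 72.7 CPM with Wnt2, 54.1 with CAF.CM+Wnt2 Ab, 69.8 with CAF.CM and 53.6 in control medium. Wnt2 and CAF.CM overlapped in their counting intervals for it, as did the antibody library and control medium.

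The start region of Casp4 (chr9:5308599-5308898, plus strand, GRCm38.p6, the first of 2 RefSeq starts) is shown because Casp4 was the 1 inflammasome gene of the set past 2-fold of control medium, and it holds a kappaB motif, in capitals.
Casp4: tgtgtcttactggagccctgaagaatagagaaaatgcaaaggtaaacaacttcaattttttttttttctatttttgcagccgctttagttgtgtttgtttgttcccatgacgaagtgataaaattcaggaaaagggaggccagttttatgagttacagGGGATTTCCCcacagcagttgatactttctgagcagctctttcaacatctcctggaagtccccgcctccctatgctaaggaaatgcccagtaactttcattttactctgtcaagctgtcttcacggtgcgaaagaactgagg
The motif began 92 bases before this start. Over all members, 1 or more windows of Il1rn, Il1rap, Casp4 and Nlrp3 held these letters, and those of the other members did not. Of all single windows 20.7% hold them, and a member had up to 3 windows. Il1rn, Il1rap and Nlrp3 lay within 2-fold of control medium with CAF.CM. Il1a, Il1b, Il1r2 and Il18bp were higher with CAF.CM and lacked these letters. A link between the letters and the levels was not tested.

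**Figure D2:**
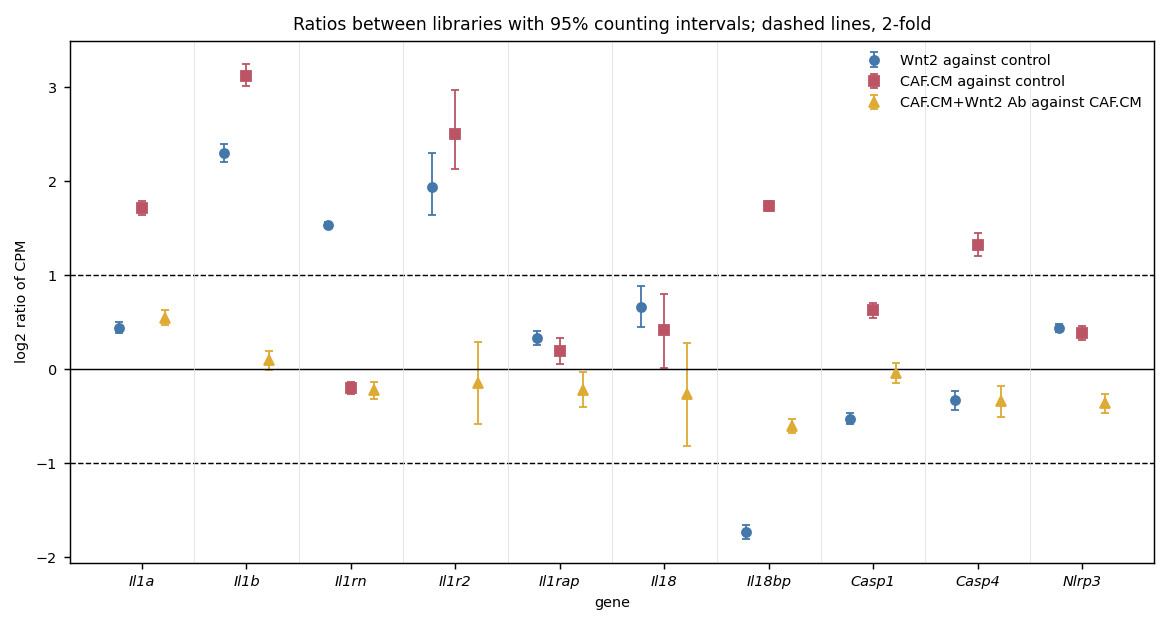
Log2 ratio of CPM (vertical axis) of each gene for Wnt2 against control, CAF.CM against control and CAF.CM+Wnt2 Ab against CAF.CM, with 95% counting intervals and dashed lines at 2-fold. Il18bp lies at -1.73 with Wnt2 and 1.73 with CAF.CM. None of these genes passes 2-fold with the antibody, where 4.67% of all genes do.

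In numbers, 3 of 10 members were higher with Wnt2 than in control medium and 1 was lower, where 2.87% and 2.93% of the 13120 listed genes were (5.8% either way). The median member ratio was 0.44, against -0.02 for all genes. CAF.CM against control medium gave 5 higher and 0 lower, where 6.68% and 8.69% of 13329 genes were (15.4% either way), with a median of 0.97 against -0.04. Set against CAF.CM alone, 0 of 10 members passed 2-fold in either direction with the antibody, where 4.67% of 13072 genes did (1.02% higher and 3.65% lower), and the median was -0.22 against -0.04. Il1a (0.55) and Il1b (0.09) had ratios above 0 there and the other 8 below. For 10 genes, a count of 0 past 2-fold is near the share of all genes. Both treatments were read against the same control library. Il1r2 was below the listing floor in control medium and was listed there only through the treated library. At that control level it could not have counted as lower. In the authors' deposited table, adjusted p-values fell below 0.05 for 5 of 10 members with Wnt2 (15.4% of genes), for 6 of 10 with CAF.CM (32.6%) and for 0 of 10 with the antibody (6.98%). The sources used here do not say how they were obtained from 1 column per group.

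With the antibody, 4 of 10 members remained at least 2-fold above control medium and 0 below, where 8.1% and 12.6% of 12882 genes were (20.7% either way). These were Il1b (log2 ratio 3.21), Il1r2 (2.36, with the same limit of listing), Il1a (2.26) and Il18bp (1.13). Casp4 stood just under 2-fold at 0.98 (interval 0.84 to 1.12). CAF.CM set against Wnt2 gave 4 higher members (Il18bp, Casp4, Il1a and Casp1) and 1 lower (Il1rn), where 4.31% and 6.46% of 12988 genes were (10.8% either way).

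The order of levels between genes was compared per kilobase of the longest coding transcript. With Wnt2, Il1rn came first at 119 CPM per kilobase and made up 53.7% of the sum over the 10 genes, ahead of Il1b at 26.1. With CAF.CM+Wnt2 Ab, Il1a led at 66.6 CPM per kilobase, then Il1b at 49.3, and Il1rn was in place 5 at 30.6. With CAF.CM alone, Il18bp led at 58.2, followed by Il1b at 46.2 and Il1a at 45.6, and Il1rn was again in place 5 at 35.8. In control medium Il1rn led at 41.2, ahead of Casp1 at 25.3, and Il1b was in place 7 at 5.30.

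Ratios between 2 genes of one library do not depend on how libraries were scaled to each other, and these pairs were chosen after the values were seen. Il1b per kilobase was 0.219 times Il1rn with Wnt2 (interval 0.213 to 0.225), 1.61 times with CAF.CM+Wnt2 Ab, 1.29 times with CAF.CM and 0.129 times in control medium (interval 0.121 to 0.137). Per kilobase, Il1b thus exceeded Il1rn in both CAF.CM libraries and not in the other 2. In CPM, without division by length, Il1b lay below Il1rn there too. The values were 62.7 against 88.5 CPM with CAF.CM and 66.8 against 75.8 with CAF.CM+Wnt2 Ab. This order therefore depends on the transcript length chosen, which the intervals do not cover. The ratio of Il1b to Il1rn was 10.0-fold higher with CAF.CM than in control medium (log2 3.33, interval 3.20 to 3.46). With Wnt2 it was 1.70-fold higher (0.77, interval 0.67 to 0.87). Il1a against Il1rn differed in direction, 2.13-fold lower with Wnt2 than in control medium (log2 -1.09, interval -1.16 to -1.03) and 3.77-fold higher with CAF.CM (1.91, interval 1.82 to 2.01). The antibody library exceeded CAF.CM alone in this ratio by 1.71-fold (0.77, interval 0.65 to 0.89).

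For IL-18 the ratio of cytokine to binding protein was highest with Wnt2 and lowest with CAF.CM. Il18 per kilobase was 0.675 times Il18bp with Wnt2, 0.0647 times with CAF.CM+Wnt2 Ab, 0.0514 times with CAF.CM and 0.128 times in control medium. This ratio was 5.27-fold higher with Wnt2 than in control medium (log2 2.4, interval 2.17 to 2.62), and CAF.CM had 2.49-fold less than control medium (-1.32, interval -1.70 to -0.93). The antibody against CAF.CM gave 0.33 (interval -0.19 to 0.86), which spans 0. Per kilobase, Il1r2 was 0.982 times the signalling receptor gene Il1r1 with Wnt2, 2.23 times with CAF.CM+Wnt2 Ab, 1.47 times with CAF.CM and 0.721 times in control medium. The antibody value rests on 82 against 151 reads (interval 1.68 to 2.93). In CPM, without division by length, Il1r2 lay below Il1r1 in every library, at 3.53 against 6.51 with CAF.CM+Wnt2 Ab and 3.92 against 10.9 with CAF.CM. This order too depends on the transcript length chosen.

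**Figure D3:**
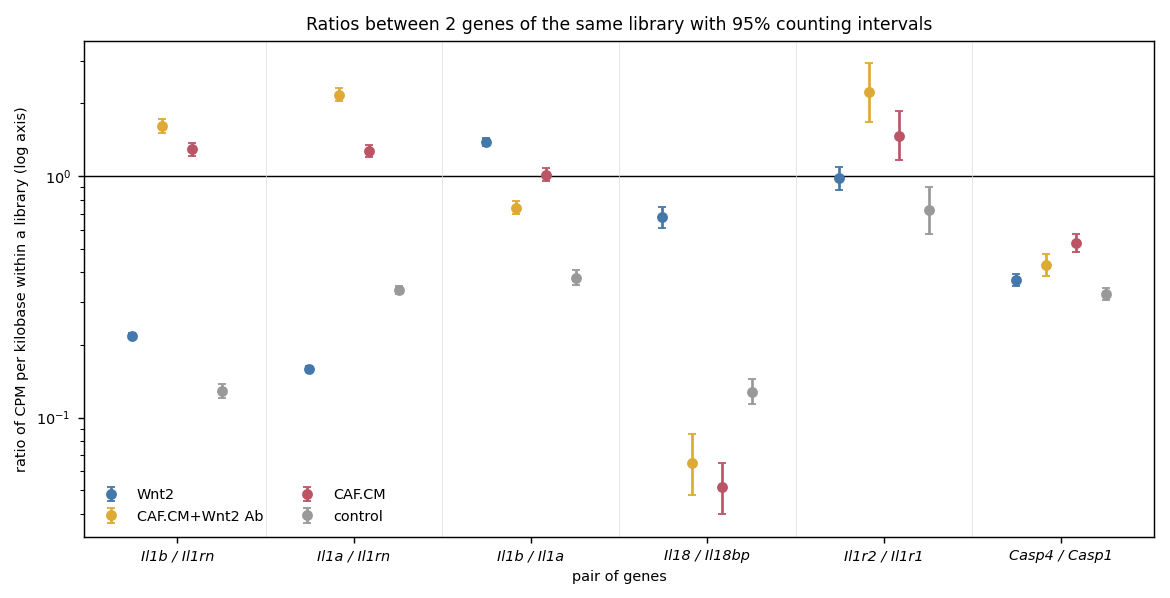
Ratio of CPM per kilobase between 2 genes of the same library (vertical axis, log scale) for 6 gene pairs in the Wnt2, CAF.CM+Wnt2 Ab, CAF.CM and control libraries, with 95% counting intervals. Il1b over Il1rn lies above 1 in both CAF.CM libraries and below 1 with Wnt2 and in control medium, while Il18 over Il18bp is highest with Wnt2 at 0.675.

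Other family members were mostly scarce. Of 14 relatives 8 were listed, and the IL-36 receptor gene Il1rl2 was the most abundant, at 31.5 CPM with Wnt2, 19.6 with CAF.CM+Wnt2 Ab, 31.4 with CAF.CM and 27.9 in control medium. Il1r1, the signalling receptor for IL-1, stood at 10.9 CPM with Wnt2, 6.51 with CAF.CM+Wnt2 Ab, 10.9 with CAF.CM and 3.82 in control medium. It was 2.86-fold higher with Wnt2 than in control medium and 2.85-fold higher with CAF.CM. Il33, an alarmin cytokine gene, was 2.33-fold higher with Wnt2 (3.19 against 1.36 CPM). It stood at 1.03 CPM with CAF.CM+Wnt2 Ab against 2.19 with CAF.CM (log2 ratio -1.03). That ratio rests on 24 against 57 reads (interval -1.83 to -0.37). Il18rap, a chain of the IL-18 receptor, stood at 5.76 CPM with Wnt2, 0.302 with CAF.CM+Wnt2 Ab (7 reads), 1.23 with CAF.CM and 3.79 in control medium. Of these relatives, Wnt2 against control medium gave 2 of 8 higher and 0 lower (median 0.44), where 2.87% and 2.93% of all genes were. CAF.CM gave 1 higher and 1 lower of 8 (median 0.13), where 6.68% and 8.69% of all genes were. The antibody against CAF.CM gave 0 of 7 higher and 2 lower (median -0.75, against -0.04 for all genes), where 1.02% and 3.65% were. With so few genes listed, these counts are a description only.

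Of the signalling chain downstream of the receptor, all 16 genes listed lay within 2-fold with Wnt2 and with the antibody, where 5.8% and 4.67% of all genes did not, and 1 was higher with CAF.CM, where 6.68% of all genes were. Counts this small are near those shares. The gene higher with CAF.CM was Irak3, a negative regulator of the pathway, at 48.4 CPM with Wnt2, 59.9 with CAF.CM+Wnt2 Ab, 65.5 with CAF.CM and 29.9 in control medium (log2 ratio of CAF.CM against control medium 1.13). Myd88, the adaptor of the receptor, had log2 ratios to control medium of -0.27 with Wnt2 and -0.59 with CAF.CM.

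Of the genes of inflammasomes and pyroptosis, 4 were higher and 4 lower of 23 listed with CAF.CM (median 0.03), where 6.68% and 8.69% of all genes were. With Wnt2 1 was higher and 2 lower of 22 (median -0.09), where 2.87% and 2.93% were, and with the antibody 0 were higher and 6 lower of 22 (median -0.50), where 1.02% and 3.65% were. With CAF.CM, the guanylate-binding protein gene Gbp5 (log2 ratio 3.46), the pyrin gene Mefv (2.17) and Naip2 (1.07), an NLR sensor gene, led the higher genes. Nlrp1a (-4.15), Nlrp1b (-2.57) and P2rx7 (-2.14), which encodes the ATP-gated channel upstream of NLRP3, were lowest. The ratio of Nlrp1a rests on 5 reads with CAF.CM (interval -5.94 to -3.08). P2rx7 stood at 74.6 CPM with Wnt2, 13.0 with CAF.CM+Wnt2 Ab, 29.3 with CAF.CM and 129 in control medium. With Wnt2, Nlrc4 (1.15) was higher and Gbp2 (-1.53) and Nlrp10 (-1.29) lower. With the antibody against CAF.CM, Nlrp1b (-2.38), P2rx7 (-1.17) and Mefv (-1.10) were lower. The inflammasome adaptor gene Pycard and the pore gene Gsdmd lay within 2-fold in all of these comparisons. Naip2 shared 33.0% of its 31-base words with other genes, Nlrp1a 8.93%, Nlrp1b 5.99%, Gbp5 5.07%, Gbp2 4.91%, Nlrc4 3.40% and P2rx7 2.08%. Nlrp10 shared 0.514%, Pycard 0.0796%, and Mefv and Gsdmd 0%. Where words are shared, reads could be split between genes.

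**Figure D4:**
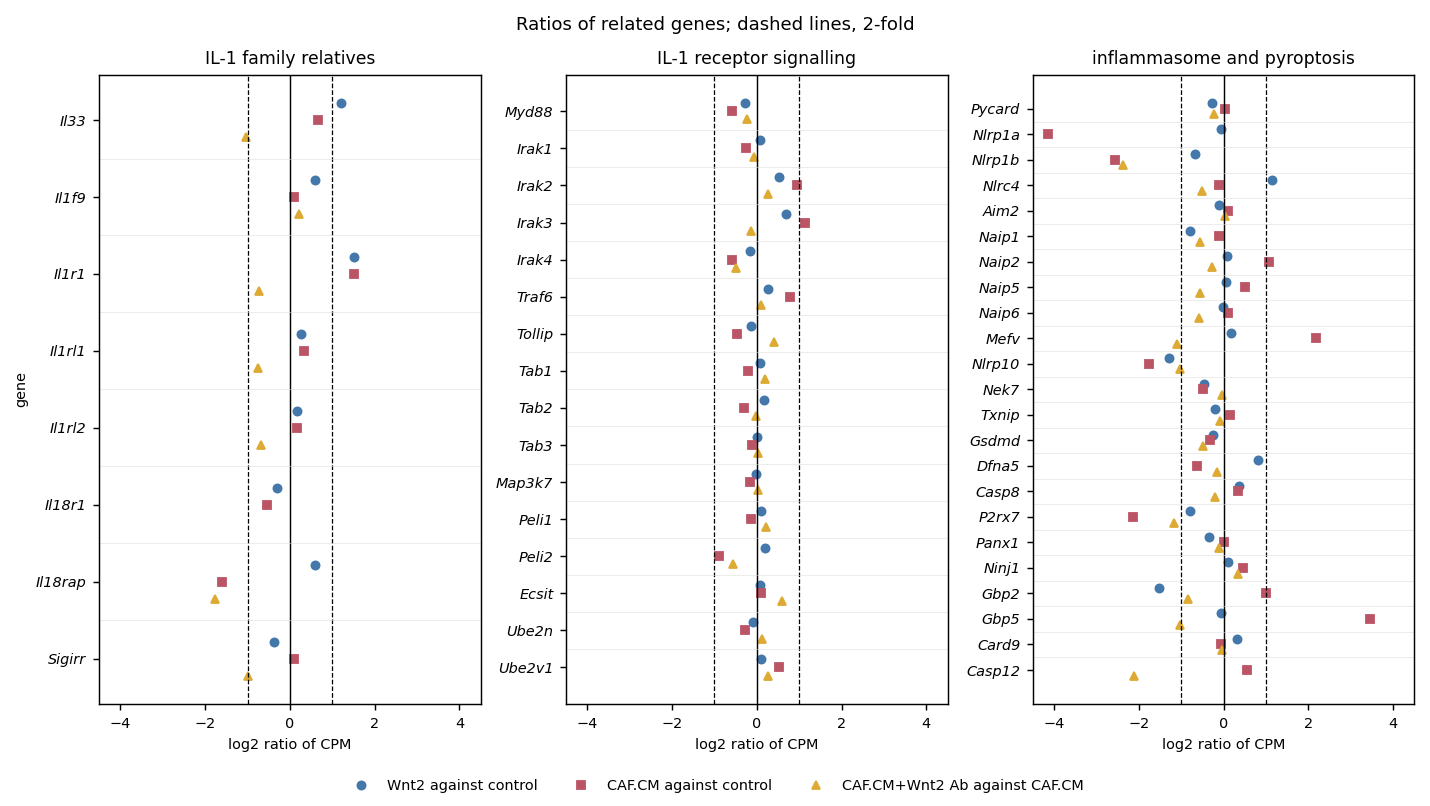
Log2 ratio of CPM (horizontal axis) for listed relatives of the IL-1 family, genes of IL-1 receptor signalling, and genes of inflammasomes and pyroptosis, 1 row per gene, in the same 3 comparisons, with dashed lines at 2-fold. With CAF.CM against control, Gbp5 lies furthest to the right at 3.46 and Nlrp1a, with 5 reads in CAF.CM, furthest to the left at -4.15.

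Neutrophils carry much Il1r2 and Il1b, so their markers are given beside those genes. Of 14 neutrophil markers 6 were listed, and Ly6g, S100a9, Elane, Mpo, Camp, Ngp, Ltf and Retnlg were listed in no table. The summed level of the listed markers was 1850 CPM with Wnt2, 136 with CAF.CM+Wnt2 Ab, 195 with CAF.CM and 871 in control medium, mostly from the metalloproteinase genes Mmp8 and Mmp9. With Wnt2 against control medium 4 of 6 markers were higher and 0 lower (median log2 ratio 1.37), beside the higher Il1b and Il1r2. Among the higher ones, Cxcr2 stood at 1.52 CPM with Wnt2 and 0.53 in control medium. It passed the listing floor of about 1 CPM only through the Wnt2 library, as did Il1r2. A marker below that floor in control medium could not have been listed as lower. Of all genes 2.87% were higher and 2.93% lower there. Mmp8 stood at 1489 CPM with Wnt2 against 544 in control medium, Mmp9 at 288 against 264 and Csf3r at 35.0 against 48.6. With CAF.CM 0 of 5 were higher and 3 lower (median -1.95), where 6.68% and 8.69% of all genes were. Il1b and Il1r2 were also higher with CAF.CM. The part of neutrophils in these values was not tested. Of 10 fibroblast markers 6 were listed, and 4 had a CAF.CM value. Of those, 1 was higher than in control medium (Dcn) and 1 lower (Postn), where 6.68% and 8.69% of all genes were. The others lay within 2-fold, and the median log2 ratio was -0.01. Dcn, the decorin gene, stood at 1.01 CPM with Wnt2, 13.9 with CAF.CM+Wnt2 Ab, 10.7 with CAF.CM and 0.509 in control medium. Postn stood at 1.22 CPM with Wnt2, 0.691 with CAF.CM and 4.51 in control medium. For CAF.CM against control medium, Dcn was thus listed only through CAF.CM and Postn only through control medium. Mast cell and basophil markers summed to at most 11.3 CPM, with 2 of 10 listed, and lymphocyte markers to at most 3.46 CPM, with 2 of 10 listed. The part of carried-over CAF material in the CAF.CM values was not tested.

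The genes whose ratios over these 3 comparisons lay nearest to those of Il1b, among 11008 protein-coding genes, were Plod2 (distance 0.37 on the log2 scale), Spatc1 (0.54), Gm28042 (0.58), Dapk2 (0.69) and Il1r2 (0.75). Plod2 encodes a lysyl hydroxylase of collagen, and its ratios were 1.99 with Wnt2, 2.99 with CAF.CM and 0.25 with the antibody. Among those nearest to Il1rn were Thbd (0.16), which encodes thrombomodulin, Pdpn (0.17), which encodes podoplanin, Trib1 (0.29) and Osgin1 (0.36). Thbd had log2 ratios of 1.49 with Wnt2, -0.36 with CAF.CM and -0.21 with the antibody. Such likeness rests on 4 libraries.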

How the data were processed

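Stranded libraries were prepared from 1 ug of total RNA after removal of ribosomal RNA, per the labels' protocols. The submitters' processing notes name edgeR, RSEM 1.2.29 and STAR 2.4.2a, and the builds mm10 and GRCm38.p5, without settings. The authors deposited CPM for each library, and the authors' tables also give log2 fold changes and p-values, per the file headers. A gene is in a table only where its higher library was at or above about 1 CPM. Libraries present in 2 tables were identical in both, for 12954 of 12954 and 12848 of 12848 genes, so levels were also set across tables.

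Reads were recovered from CPM, since 99.96% of control values and 100% of the others were whole multiples of 1 step per library within 0.1 step. The plan had assumed this or plain CPM. Log2 ratios were computed over whole tables with a prior count of 2, with exact conditional binomial 95% intervals for ratios between libraries, exact Poisson intervals for levels, and exact binomial intervals for ratios within a library. Intervals for the change of a within-library ratio used a normal approximation on the log scale. They cover counting error only. Python 3.11.15, numpy 2.4.6, pandas 2.3.3, scipy 1.17.1 and matplotlib 3.10.9 were used, and the steps were tested on simulated data. No test gives a p-value with 1 library per group.

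The members and lists were chosen with earlier results of these data known. All 10 members are named, plus up to 3 genes per list, direction and comparison past 2-fold with at least 50 reads, and the 5 genes nearest to Il1b and to Il1rn, of which 1 is not reported here. Il1rl2, Lyz2, Numa1, Gm14023, Myd88, Pycard and Gsdmd were named after their values were seen. Alternatives were other scalings, prior counts, a read minimum, the deposited log2 fold changes and other thresholds.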

Additional observations from a re-analysis of the deposited data

How the results depend on the processing

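The counts of members past 2-fold were recomputed with median-of-ratios size factors, total counts, prior counts of 0.5 and 5, a minimum of 100 reads, the authors' deposited log2 fold changes, a 1.5-fold threshold and intervals wholly beyond 2-fold. Each count stayed within 1.5 times its value under every alternative run, except for the antibody against CAF.CM. There the 1.5-fold threshold gave 1 lower member in place of 0, Il18bp at 1.52-fold lower. For CAF.CM+Wnt2 Ab against control medium the 2 scalings gave 5 members in place of 4, with Casp4 then past 2-fold, and the minimum of 100 reads left 3. Of the single ratios 229 of 230 alternative values lay within the counting interval, and Il18bp with CAF.CM gave 1.80 with total counts. The ratio of Il1rap with the antibody against control medium turned from -0.02 to 0.04. The largest shift of the median of all genes by a scaling was 0.0611, with total counts for CAF.CM against control medium. No paired analysis was possible because each group has 1 library. Depth limits Il18 and Il1r2 most, with 51 and 82 reads in the antibody library.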
